A study of Mus musculus with 12 samples.

Results

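The subject here is a group of 10 mouse genes: Nfe2l2, which encodes the transcription factor NRF2, and 9 antioxidant genes, namely Nqo1, Gclc, Gclm, Srxn1, Txnrd1, Sod1, Sod2, Sod3 and Gpx3. They were taken by symbol, and all 10 were found among the 14179 genes listed in any of the 3 deposited tables. The RNA came from isolated alveolar epithelial cells (AECs) of C57BL/6 mice 8 to 10 weeks old. The 12 libraries formed 4 groups of 3: LPS (bacterial lipopolysaccharide, 2 mg/kg, into the trachea) after 1 day, bleomycin (1.5 U/kg, by the same route) after 2 weeks, bleomycin after 4 weeks, and saline. No time after saline was at hand, and the same saline libraries are the reference at every time. Beads had first taken out cells with leukocyte, endothelial, red cell or mesenchymal surface proteins, and an EpCAM antibody then bound the cells that were used. LPS gives an acute neutrophilic lung injury and bleomycin a slower injury that turns fibrotic. Whether each library stands for its own animal is not said in the labels, and p-values measure only the spread between these libraries, which may be technical.

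NRF2 is held in the cytoplasm by KEAP1, which passes it to the CUL3 ubiquitin ligase for degradation. Oxidants and electrophiles modify KEAP1, and NRF2 then enters the nucleus, pairs with a small MAF protein and binds antioxidant response elements (AREs), a place that the repressor BACH1 can also take. Nqo1, Gclc, Gclm, Srxn1 and Txnrd1 are widely used readouts of that binding, whereas the superoxide dismutases and the plasma glutathione peroxidase Gpx3 have other inputs as well, among them NF-kB for Sod2. Since NRF2 is controlled mainly as a protein, the mRNA of Nfe2l2 does not measure its activity.

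The stretch of DNA around the start sites is shown for 5 of the members. Gclm, Srxn1 and Txnrd1 are the direct targets with a window that held the motif marked below. For Txnrd1 only the window that held it is shown. Nqo1, a direct target whose window held none, is not shown. Sod1 had the largest change of the 10 at 2 weeks of bleomycin and Sod2 the largest after LPS. Each line gives 300 bases 5′ to 3′ on the gene's own strand, 250 before the start site and 50 from it on, from RefSeq on GRCm38.p6. Capitals mark a match to the ARE core TGACNNNGC or its reverse complement. The windows are chr3:122245307-122245606 (Gclm), chr2:152105274-152105573 (Srxn1), chr10:82858956-82859255 (Txnrd1), chr16:90220512-90220811 (Sod1) and chr17:13007589-13007888 (Sod2), each on the plus strand.
Gclm: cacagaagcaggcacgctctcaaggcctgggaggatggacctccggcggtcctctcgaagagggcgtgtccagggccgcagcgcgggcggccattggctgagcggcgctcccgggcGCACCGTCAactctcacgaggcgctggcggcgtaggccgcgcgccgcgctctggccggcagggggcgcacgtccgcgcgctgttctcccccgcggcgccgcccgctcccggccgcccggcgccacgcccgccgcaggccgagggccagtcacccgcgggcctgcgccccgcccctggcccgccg
Srxn1: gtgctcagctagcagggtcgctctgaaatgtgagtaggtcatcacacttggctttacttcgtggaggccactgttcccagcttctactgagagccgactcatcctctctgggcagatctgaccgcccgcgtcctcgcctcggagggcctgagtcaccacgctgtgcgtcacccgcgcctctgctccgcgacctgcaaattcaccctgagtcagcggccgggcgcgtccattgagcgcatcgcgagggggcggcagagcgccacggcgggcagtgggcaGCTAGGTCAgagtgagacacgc
Txnrd1: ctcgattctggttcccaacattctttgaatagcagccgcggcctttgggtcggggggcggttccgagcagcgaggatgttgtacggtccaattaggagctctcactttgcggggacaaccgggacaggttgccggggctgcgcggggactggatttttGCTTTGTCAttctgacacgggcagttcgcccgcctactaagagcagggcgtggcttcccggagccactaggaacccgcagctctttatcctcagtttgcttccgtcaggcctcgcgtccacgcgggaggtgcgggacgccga
Sod1: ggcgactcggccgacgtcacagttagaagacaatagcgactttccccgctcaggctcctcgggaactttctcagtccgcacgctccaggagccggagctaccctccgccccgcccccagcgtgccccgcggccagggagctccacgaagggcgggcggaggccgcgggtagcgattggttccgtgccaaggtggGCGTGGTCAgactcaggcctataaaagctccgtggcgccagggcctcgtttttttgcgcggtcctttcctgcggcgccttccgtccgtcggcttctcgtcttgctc
Sod2: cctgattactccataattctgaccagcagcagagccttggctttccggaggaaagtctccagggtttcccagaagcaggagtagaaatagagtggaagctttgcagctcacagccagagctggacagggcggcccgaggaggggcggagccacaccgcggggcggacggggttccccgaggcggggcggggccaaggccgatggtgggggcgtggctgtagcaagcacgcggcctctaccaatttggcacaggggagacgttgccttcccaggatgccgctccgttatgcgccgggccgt

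The Gclm match starts at position -134 from the start site, that of Txnrd1 at -92, that of Sod1 at -56 and that of Srxn1 at 28. The Sod2 window holds none. Windows were at hand for 8 of the 10 members, 10 windows in all because Txnrd1 has 3 start sites. A core stood in 5 windows of 5 members, the fifth being Nfe2l2, where it starts at -240. It was not in the windows of Nqo1 and Gpx3, and Gclc and Sod3 were not analysed here. Of all 32851 mouse windows of that length, 12.4% hold the same core on 1 strand or the other. An AP-1 letter string, TGACTCA, searched on both strands, was found at -102 and -45 in Srxn1 and in no other member, against 5.2% of all windows, and does not overlap its core. With the letters after it, the string at -45 reads TGAGTCAGC, which differs from the core searched in 1 letter, G for C. Variants of the core were not searched. A match describes the letters and shows no binding, and a window without a match says nothing of sites outside it.

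The measure throughout is FPKM, fragments per kilobase of transcript relative to all mapped fragments, so levels of different genes can be set beside each other. In the saline libraries Sod1 and Gpx3 stood highest, with means of 585 ± 34.9 and 551 ± 365 FPKM (SD, n = 3), and their ranges overlapped. Sod3 followed at 239 ± 22.8, Nfe2l2 at 75.1 ± 2.78, Gclc at 62.5 ± 6.71, Txnrd1 at 50.04 ± 2.88, Sod2 at 29.5 ± 1.73 and Srxn1 at 18.1 ± 0.633 FPKM, and no neighbours in that run overlapped. Nqo1 at 7.52 ± 0.801 and Gclm at 7.21 ± 0.22 FPKM came last and overlapped each other. The lowest 2 still lay above 55.4% of the genes in all 3 tables, and Sod1 above 99.5%.

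**Figure D1:**
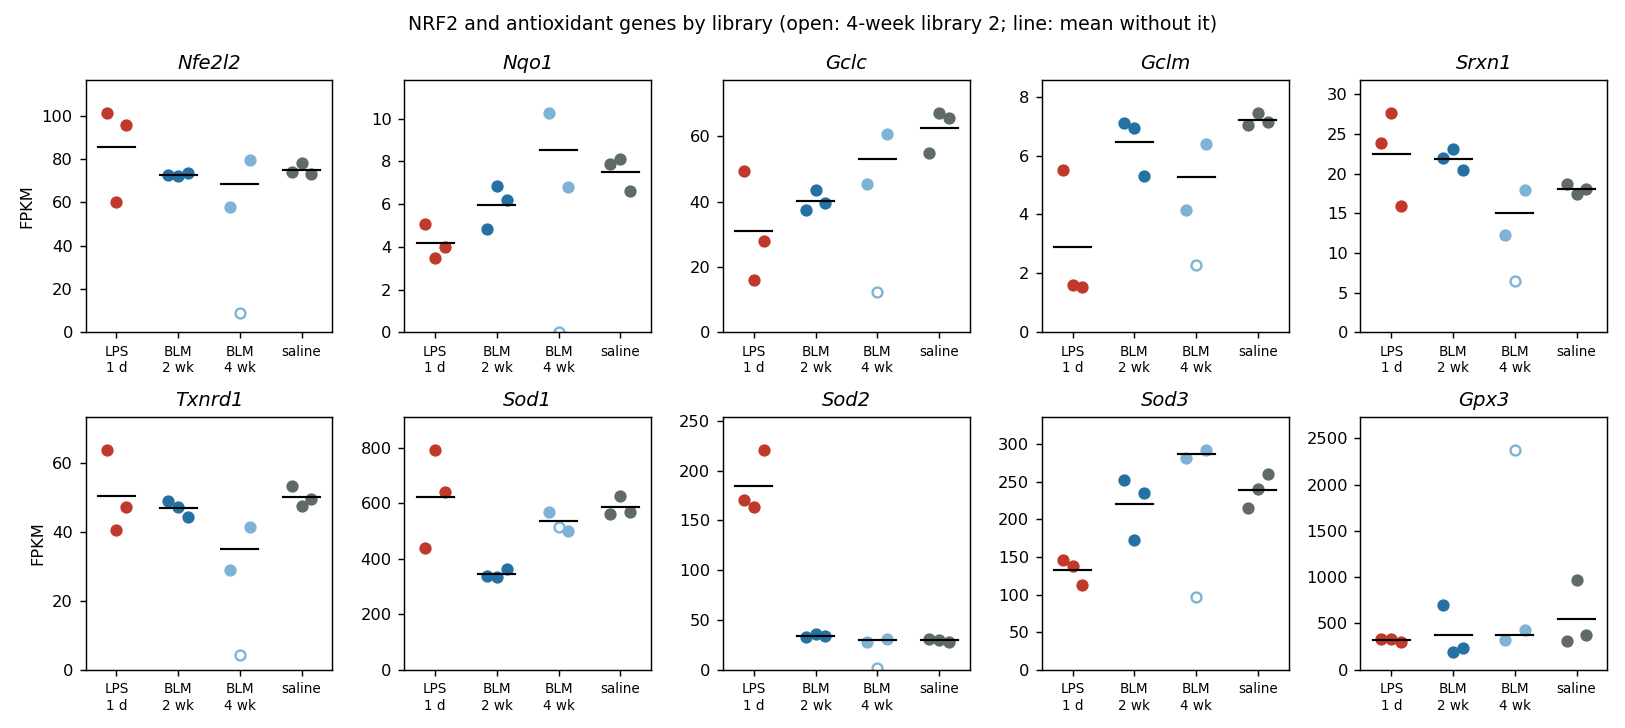
FPKM (vertical axes, linear, each from 0) of the 10 genes in the 12 libraries, by group along the horizontal axis. Points are libraries, lines are group means without 4-week library 2 (open point). Sod2 stands at 163 to 221 FPKM in the LPS libraries and between 1.43 and 36.3 FPKM in all the others.

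1 library needs naming before the results. In library 2 of the 4-week group 45.4% of the 13518 genes common to the tables were listed at 0, against at most 0.577% in the 11 other libraries, and its correlation with the other libraries of its group was 0.596 and 0.637. The 4-week differences are therefore given with and without it, and the levels of that library are given apart. Another 4-week library, whose column number has no counterpart among the titles, appears below as the unnumbered one. The 5 general epithelial markers, Epcam and Cdh1 among them, were above 0 in the 11 other libraries, whereas library 2 listed Epcam, which codes for the protein the antibody bound, and Cdh1 at 0. The others, Krt8, Krt18 and Nkx2-1, had 35.8, 462 and 1.90 FPKM in library 2, and the 5 summed to 500 FPKM there. In the other libraries the 5 summed to 217 to 310 FPKM after LPS, 328 to 382 FPKM at 2 weeks and 398 and 417 FPKM at 4 weeks, against 553 to 647 FPKM in saline. Sftpc and 7 further markers of alveolar type 2 (AT2) cells, which make surfactant, summed to 3818 to 7224 FPKM after LPS and 3511 to 4460 FPKM at 2 weeks and 15774 and 11721 FPKM at 4 weeks without library 2, against 14162 to 18356 FPKM in saline. In library 2 the AT2 markers summed to 22218 FPKM and the 4 club cell markers to 58579 FPKM, each the highest of all libraries. Neutrophil markers (7 genes, S100a8 and S100a9 among them) summed to 2610, 5561 and 7504 FPKM in LPS libraries 1 to 3, to 152 to 237 FPKM at 2 weeks and to 217 to 560 FPKM in saline. Macrophage and monocyte markers without Lyz2, which mouse AT2 cells also make, summed to 993 to 1158 FPKM after LPS, 301 to 474 FPKM at 2 weeks and 146 to 249 FPKM in saline. The 10 fibroblast and smooth muscle markers summed to 1070 to 1488 FPKM after LPS and 2787 to 3356 FPKM at 2 weeks. In saline their sum was 2695 to 3330 FPKM. By the limma test, 5 of 5 general epithelial markers were lower both after LPS and at 2 weeks, as were 3 and 4 of 4 club cell, 4 and 2 of 5 ciliated, 4 and 3 of 7 AT1 (with 1 higher in each), 3 and 1 of 6 endothelial and 2 and 0 of 3 mesothelial markers. Fibroblast and smooth muscle markers were 5 lower of 10 after LPS and 4 higher and 1 lower at 2 weeks, and lymphocyte markers 3 higher and 2 lower of 6 after LPS and 2 higher at 2 weeks. Beside these marker counts, 14.2% of all genes tested were higher and 25.9% lower after LPS, and 18% and 11.8% at 2 weeks. In such bulk samples fewer cells of a type and less RNA per cell cannot be told apart, and the part of these markers in the results below was not tested.

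After LPS, Sod2 was the member that rose, while Gclc, Gclm, Nqo1 and Sod3 fell and Nfe2l2, Srxn1, Txnrd1, Sod1 and Gpx3 did not pass the test. So 5 of the 10 members passed (limma on log2(FPKM + 1), Benjamini-Hochberg adjusted p under 0.05 over 12456 genes), 1 higher and 4 lower, where 40.2% of all genes tested passed, 14.2% higher and 25.9% lower. The groups did not overlap for the same 5, against 55.7% of all genes. The members' share lies near that background. The median member changed by -0.29 on the log2 scale and the median gene by -0.22.

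Nfe2l2 (ENSMUSG00000015839.6, chr2:75675513-75704641, minus strand; mm10 here and below, as deposited) had 101, 60.1 and 95.6 FPKM in LPS libraries 1 to 3, against 74.2, 78.2 and 72.9 FPKM in saline libraries 1 to 3. The LPS libraries lay on both sides of saline, and the difference was 0.15 ± 0.22 on the log2 scale (SE; limma adjusted p = 0.594). Its sign turned when libraries were scaled to equal summed FPKM (-0.039) and under quantile normalization (-0.15).

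Gclc (ENSMUSG00000032350.8, chr9:77754535-77794485, plus strand) encodes the catalytic subunit of glutamate-cysteine ligase, the enzyme of the rate-limiting step of glutathione synthesis. It had 49.5, 15.9 and 27.9 FPKM after LPS, against 54.8, 67.1 and 65.5 FPKM in saline. All LPS libraries were below all saline libraries, library 1 only narrowly and library 2 by the most. The mean was 0.498 times that of saline, and the log2 difference was -1.12 ± 0.34 (limma adjusted p = 0.0305).

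Gclm (ENSMUSG00000028124.15, chr3:122245557-122270732, plus strand), the modifier subunit that makes the ligase more efficient, had 5.52, 1.61 and 1.53 FPKM after LPS, against 7.03, 7.45 and 7.15 FPKM in saline. Libraries 2 and 3 were far below saline and library 1 much nearer to it. The mean fell to 0.4 of the saline mean, a log2 difference of -1.23 ± 0.34 (limma adjusted p = 0.0204). The gene shares exonic bases with the pseudogene Gm6061 on its strand and with Gm17494 on the other, and the labels do not state a strand setting for the counting, so its level is uncertain. The ratio of Gclc to Gclm was 8.97, 9.92 and 18.2 after LPS and 7.80, 9.01 and 9.15 in saline, so the ranges overlapped.

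Nqo1 (ENSMUSG00000003849.8, chr8:107388225-107403206, minus strand) makes a quinone reductase and is the textbook NRF2 target. It stood at 5.09, 3.49 and 3.99 FPKM after LPS, against 7.87, 8.09 and 6.61 FPKM in saline, and again no LPS library reached the saline range. The log2 difference was -0.72 ± 0.19 (limma adjusted p = 0.016).

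Srxn1 (ENSMUSG00000032802.8, chr2:152105516-152111376, plus strand), which restores overoxidized peroxiredoxins, had 23.8, 27.7 and 16.0 FPKM after LPS, against 18.7, 17.5 and 18.0 FPKM in saline. LPS library 3 was the lowest of the 6 and the other LPS libraries the highest, and the log2 difference of 0.27 ± 0.21 did not pass (limma adjusted p = 0.327). Txnrd1 (ENSMUSG00000020250.9, chr10:82859206-82897724, plus strand), the cytosolic thioredoxin reductase, had 63.7, 40.4 and 47.1 FPKM after LPS, against 53.2, 47.5 and 49.4 FPKM in saline. Its difference was -0.014 ± 0.20 (adjusted p = 0.962), with values on both sides of saline. Of the 5 direct targets 3 were lower after LPS and 2 did not pass, where 25.9% of all genes tested were lower. The calls of these 3 depended on single libraries, as given below.

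Sod2 (ENSMUSG00000006818.4, chr17:13007839-13018119, plus strand) encodes the manganese superoxide dismutase of mitochondria, which turns superoxide into hydrogen peroxide. It had 170, 163 and 221 FPKM after LPS, against 30.7, 30.3 and 27.5 FPKM in saline. The LPS libraries stood apart from all others, with a mean 6.26 times that of saline and a log2 difference of 2.59 ± 0.18 (limma adjusted p = 3.11e-05). Of all genes tested 98.5% changed by less. In the same libraries the neutrophil and macrophage marker sums given above were also higher, and 7 of 7 and 8 of 10 of those markers rose; their part in the Sod2 result was not tested. In LPS libraries 1 to 3 the neutrophil sums were 2610, 5561 and 7504 FPKM, and Sod2 stood at 170, 163 and 221 FPKM. Library 3 was the highest for both, while the others, close together for Sod2, stood in opposite order. A relation between these values was not tested.

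Sod1 (ENSMUSG00000022982.9, chr16:90220742-90226322, plus strand), the copper-zinc enzyme of the cytosol, had 440, 791 and 638 FPKM after LPS, against 561, 625 and 569 FPKM in saline. LPS library 1 was the lowest of the 6 and libraries 2 and 3 the highest. The log2 difference was 0.05 ± 0.26 (limma adjusted p = 0.886), and its sign turned with equal summed FPKM (-0.14), with quantile normalization (-0.26) and without LPS library 2 (-0.14). Sod3 (ENSMUSG00000072941.5, chr5:52363791-52371418, plus strand), the secreted enzyme of the extracellular matrix, had 147, 139 and 112 FPKM after LPS, against 216, 241 and 261 FPKM in saline. It fell by 0.85 ± 0.19 on the log2 scale (adjusted p = 0.00807), with no overlap. In the same libraries the sums of the general epithelial and of the fibroblast and smooth muscle markers were lower too. Their part in the Sod3 result was not tested. As a share of the summed FPKM of the 3 dismutases, Sod2 made up 22.5%, 14.9% and 22.7% after LPS, and 3.81%, 3.38% and 3.21% in saline.

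Gpx3 (ENSMUSG00000018339.11, chr11:54902453-54910377, plus strand), a selenium enzyme that is secreted and reduces peroxides outside cells, had 336, 334 and 302 FPKM after LPS, against 305, 971 and 378 FPKM in saline. Saline library 2 stood far above the other 5, and the difference of -0.57 ± 0.39 did not pass (limma adjusted p = 0.259).

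LPS library 1 had the highest FPKM of its group for Nfe2l2, Nqo1, Gclc, Gclm, Txnrd1, Sod3 and Gpx3 and the lowest for Sod1. The 4 calls of lower members depended on single libraries. The adjusted p of Gclc was 0.05001 without LPS library 2, 0.109 without LPS library 3 and 0.056, 0.0847 and 0.0804 without saline library 1, 2 or 3, and that of Gclm was 0.0594, 0.0985, 0.0523, 0.0584 and 0.0534 in the same order. Nqo1 lost its call without LPS library 3 (0.0514), saline library 1 (0.0653) or saline library 2 (0.0763), and Sod3 without saline library 3 (0.0562). Sod2 kept it in each of these fits. By the authors' deposited q-values Gclc (q = 0.158) and Gclm (q = 0.127) did not pass after LPS, while Nqo1, Sod2 and Sod3 did. Directions of the 5 called members held under all alternatives tried, with log2 ranges of 2.30 to 2.87 for Sod2, -1.52 to -0.73 for Gclc, -1.68 to -0.99 for Gclm, -0.88 to -0.49 for Nqo1 and -1.24 to -0.58 for Sod3.

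The scale mattered to the balance of all genes. In the LPS comparison 1770 genes were higher and 3232 lower on the deposited scale, 1225 and 3669 with equal summed FPKM, 2530 and 2109 with median-ratio scaling and 2134 and 2546 with quantile normalization, while the median gene's log2 difference of -0.22 became -0.37, 0.0024 and -0.062. Under median-ratio scaling Gclc still differed by -0.85 but did not pass (limma adjusted p = 0.0654).

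**Figure D2:**
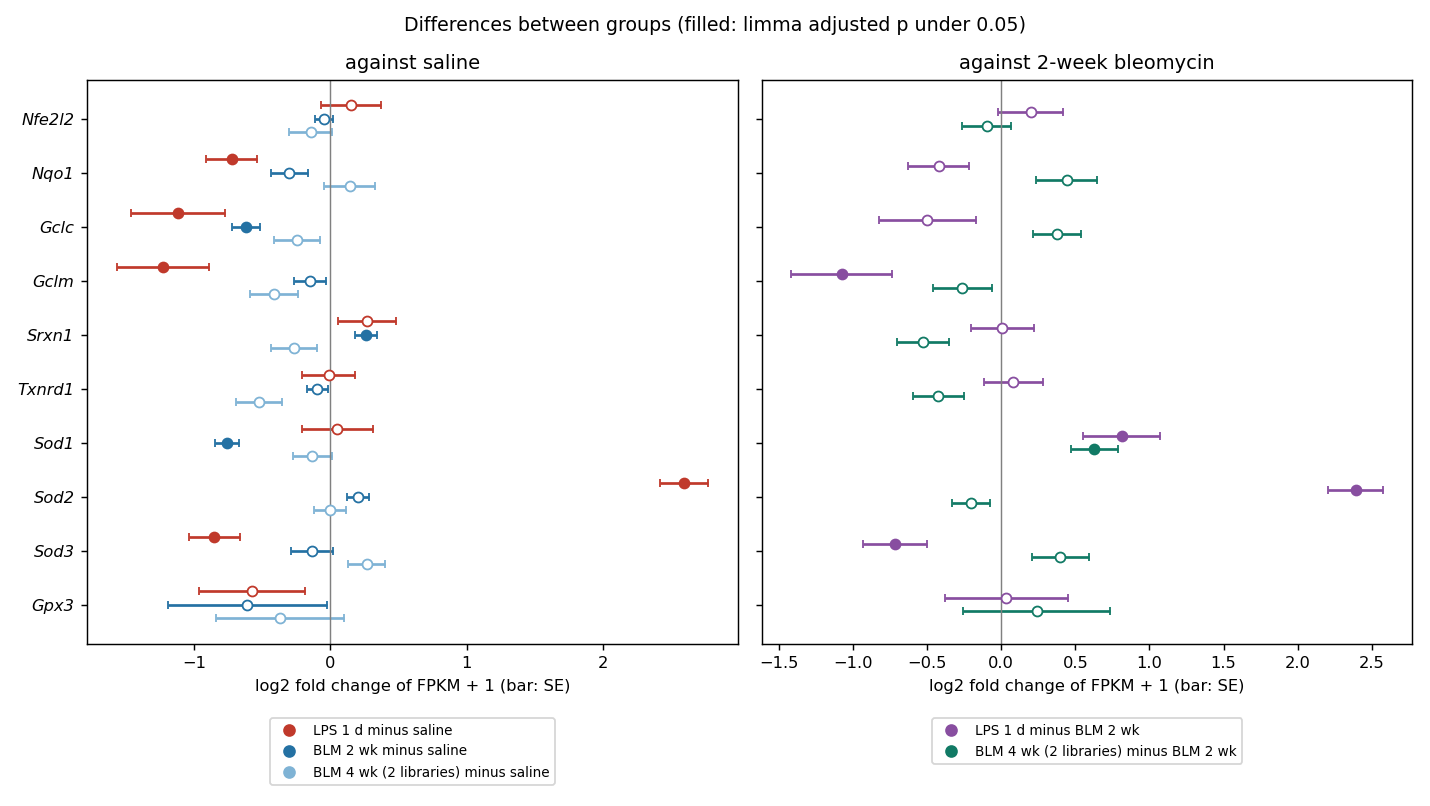
Log2 fold change of FPKM + 1 (horizontal axis, linear in log2; points are limma estimates and bars are SE) of the 10 genes, against saline on the left and against 2-week bleomycin on the right. Filled points passed an adjusted p of 0.05; the 4-week differences leave out library 2. Sod2 after LPS, at 2.59, lies farthest from 0.

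The genes around the members, in 6 lists, moved in both directions after LPS. Of 63 listed genes tested, 21 were higher, 10 lower and 32 did not pass. Over all genes tested, 14.2% were higher and 25.9% lower. The lists, like the members, were chosen with earlier results of these data known, and the counts describe them only.

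Among 9 regulators of NRF2 none rose and 2 fell after LPS, the small MAF genes Mafk (28.6 against 54.2 FPKM in saline; log2 difference -0.92 ± 0.19, limma adjusted p = 0.00654) and Maff (75.4 against 124 FPKM; -0.71 ± 0.17, adjusted p = 0.011). Keap1, the inhibitor, averaged 8.73 FPKM after LPS and 10.3 FPKM in saline and did not pass (adjusted p = 0.369), nor did Bach1 (11.5 and 12.1 FPKM, adjusted p = 0.681). Maff did not pass without saline library 1 or 3 (adjusted p = 0.0516 and 0.0578). The list's median was -0.19, near that of all genes.

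Of 11 further glutathione genes 5 rose and 1 fell after LPS, with a median of 0.59. Gsr, the reductase that regenerates glutathione, had 67.3, 53.9 and 67.8 FPKM after LPS, against 28.1, 23.7 and 27.6 FPKM in saline (log2 difference 1.22 ± 0.17, limma adjusted p = 0.000922). Glrx, a glutaredoxin, rose by 1.55 ± 0.16 (adjusted p = 0.000208) and Gpx2, a peroxidase of epithelia, by 0.88 ± 0.17 (adjusted p = 0.00479), whereas Gpx8, an enzyme of the endoplasmic reticulum, fell by 0.89 ± 0.19 (adjusted p = 0.00756). Slc7a11, the cystine importer that supplies glutathione synthesis, was singled out after its values were seen, because its level is below the minimum set for naming. It had 11.95, 9.24 and 7.65 FPKM after LPS, against 0.918, 0.497 and 0.684 FPKM in saline (2.63 ± 0.20, adjusted p = 4.95e-05). Slc7a11 and Gsr thus stood higher in the same libraries in which both ligase subunits stood lower.

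In the thioredoxin and peroxiredoxin list 2 of 11 rose and 1 fell. Prdx5, a peroxiredoxin of mitochondria and peroxisomes, had 228, 384 and 325 FPKM after LPS, against 57.6, 50.5 and 56.1 FPKM in saline (log2 difference 2.46 ± 0.22, limma adjusted p = 0.00011). Txn1, thioredoxin itself, rose by 1.12 ± 0.25 (adjusted p = 0.00873), and Txnrd3, a reductase best known from testis, fell to 3.24 FPKM, against 10.1 FPKM in saline (log2 difference -1.41 ± 0.21, adjusted p = 0.00121).

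Of 20 other reported NRF2 targets 6 rose and 4 fell after LPS. Hmox1, heme oxygenase, averaged 120 FPKM after LPS and 46.0 FPKM in saline (log2 difference 1.37 ± 0.16, limma adjusted p = 0.000364). The detoxifying enzymes Ephx1 (-1.94 ± 0.20, adjusted p = 0.000228), Gstm1 (-1.36 ± 0.20, adjusted p = 0.0012) and Cbr1 (-0.97 ± 0.16, adjusted p = 0.00232) fell. Named after their values were seen, the pentose phosphate genes G6pdx, Taldo1 and Pgd, which feed NADPH production, rose by 0.95, 0.93 and 0.72 on the log2 scale, the ferritin heavy chain gene Fth1 rose by 1.82, and Me1, the cytosolic malic enzyme, fell by 1.10. Of 4 genes of peroxide removal and copper supply 1 rose and 1 fell. Cat, the catalase that removes hydrogen peroxide in peroxisomes, had 52.3, 30.6 and 34.8 FPKM after LPS, against 99.6, 126 and 114 FPKM in saline (-1.53 ± 0.22, adjusted p = 0.00113), and Atox1, a copper carrier, rose by 1.46 ± 0.28 (adjusted p = 0.00408).

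Enzymes that make oxidants were 7 higher and 1 lower of 8 tested after LPS, with a median of 2.14. The rises included Ncf4, Ncf1, Cybb and Cyba, parts of the NADPH oxidase of phagocytes, by 2.99 ± 0.28, 2.73 ± 0.26, 2.21 ± 0.28 and 2.17 ± 0.29 on the log2 scale (limma adjusted p = 0.000134 to 0.000794). These are also genes of neutrophils and macrophages, whose marker sums were higher in the same libraries; the part of those cells was not tested. Nox4, another NADPH oxidase on the list, averaged 3.92 FPKM after LPS and 17.3 FPKM in saline.

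**Figure D3:**
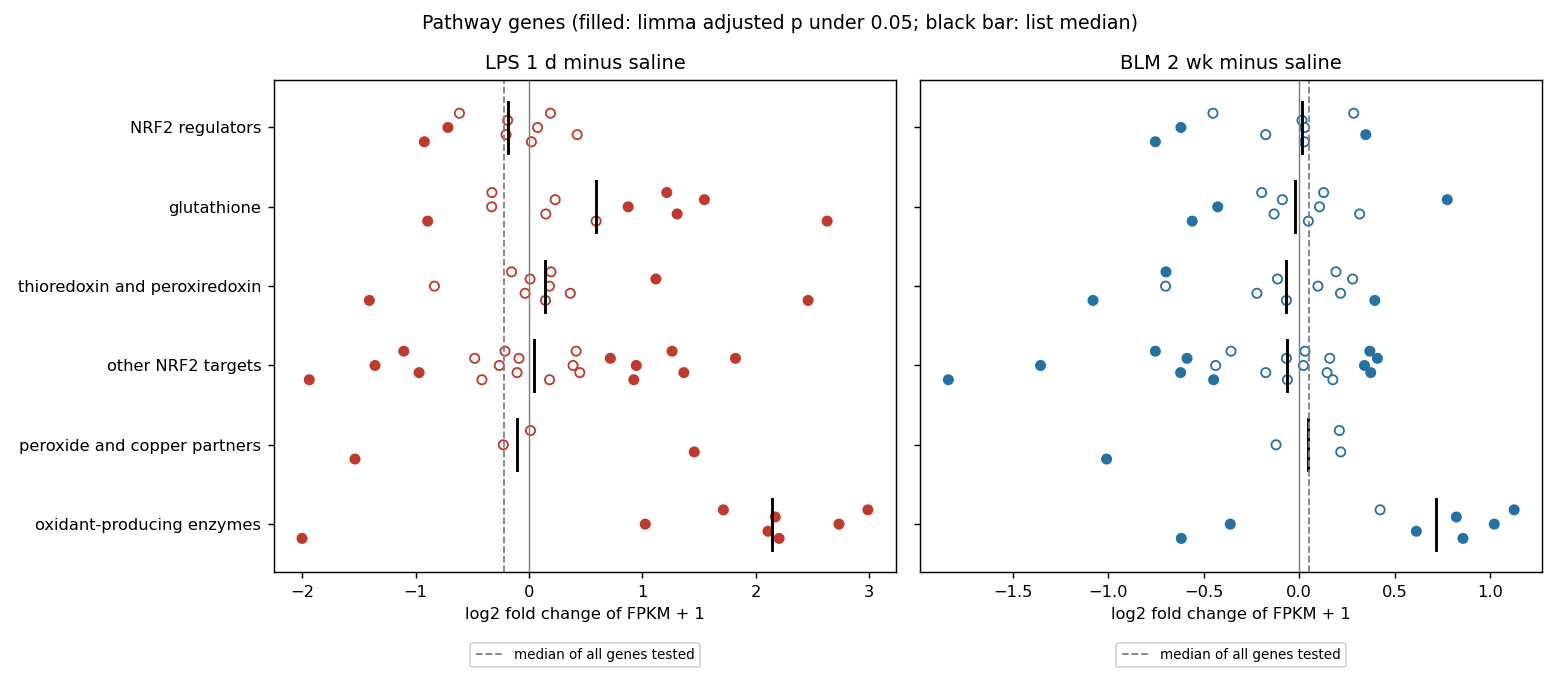
Log2 fold change of FPKM + 1 (horizontal axes) of the listed pathway genes, by list down the page, for LPS on the left and 2-week bleomycin on the right. Points are genes, filled where adjusted p was under 0.05, black bars are list medians and the dashed line is the median of all genes tested; the oxidant-producing list has medians of 2.14 and 0.72.

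At 2 weeks of bleomycin Sod1 and Gclc fell and Srxn1 rose slightly, and the other 7 members did not pass. That is 1 member higher and 2 lower of 10, where 29.8% of the 12725 genes tested passed (limma), 18% higher and 11.8% lower, and the groups did not overlap for 4 members, against 47.3% of genes. With equal summed FPKM 3645 genes were higher and 922 lower, with median-ratio scaling 1999 and 1995 and with quantile normalization 1925 and 2027, against 2290 and 1496 as deposited, and the median gene's log2 difference of 0.053 became 0.18, -0.0083 and -0.019.

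Sod1 had 337, 334 and 363 FPKM in 2-week libraries 1 to 3, against 561, 625 and 569 FPKM in saline. The 2-week libraries were close together and all far below saline, with a mean of 0.59 of the saline mean and a log2 difference of -0.76 ± 0.086 (limma adjusted p = 0.000969). This call held in 15 of 16 alternatives and was lost in a fit of all 12 libraries (adjusted p = 0.364). Gclc had 37.4, 43.7 and 39.6 FPKM at 2 weeks, against 54.8, 67.1 and 65.5 FPKM in saline, with no overlap and a log2 difference of -0.62 ± 0.10 (adjusted p = 0.00495).

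Gclm had 7.10, 6.92 and 5.32 FPKM at 2 weeks, against 7.03, 7.45 and 7.15 FPKM in saline, and did not pass (log2 difference -0.15 ± 0.11, limma adjusted p = 0.363). The ratio of Gclc to Gclm was 5.26, 6.31 and 7.44 at 2 weeks and 7.80, 9.01 and 9.15 in saline, so no 2-week library reached the saline range; this ratio was not tested. Nqo1 had 4.82, 6.85 and 6.17 FPKM, of which 1 lay within the saline range of 6.61 to 8.09 FPKM (-0.30 ± 0.13, adjusted p = 0.136). It passed under quantile normalization (-0.37, adjusted p = 0.0467).

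Srxn1 had 22.0, 23.1 and 20.4 FPKM at 2 weeks, against 18.7, 17.5 and 18.0 FPKM in saline, a log2 difference of 0.26 ± 0.078 (limma adjusted p = 0.0435). Its call was lost when any single library was left out, with adjusted p = 0.0786, 0.109 and 0.0748 without 2-week library 1, 2 or 3 and 0.0636, 0.135 and 0.119 without saline library 1, 2 or 3, and also with median-ratio scaling (0.0766) and quantile normalization (0.0866). Sod2 had 32.6, 36.3 and 33.4 FPKM, just above the saline range of 27.5 to 30.7 FPKM, and did not pass (0.20 ± 0.081, adjusted p = 0.0998), although it did with equal summed FPKM (0.36, adjusted p = 0.0218). Nfe2l2 stayed within 71.9 to 73.4 FPKM at 2 weeks, against 72.9 to 78.2 FPKM in saline, and its difference of -0.048 ± 0.068 did not pass (adjusted p = 0.632). Txnrd1 had 44.2 to 48.9 FPKM at 2 weeks, against 47.5 to 53.2 FPKM in saline, and Sod3 173 to 253 FPKM, against 216 to 261 FPKM, with overlap in both. Gpx3 ranged over 188 to 696 FPKM at 2 weeks, against 305 to 971 FPKM in saline, the widest relative spread of the 10 in both groups.

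Around the members, 12 of 62 listed genes tested rose at 2 weeks, 15 fell and 35 did not pass. Over all genes tested, 18% were higher and 11.8% lower. Mafk and Maff fell again, to 31.8 FPKM against 54.2 FPKM in saline (log2 difference -0.75 ± 0.10, limma adjusted p = 0.00187) and to 80.3 against 124 FPKM (-0.62 ± 0.084, adjusted p = 0.00198), in a comparison that shares its saline libraries with that of LPS. Bach1, the ARE repressor, rose by 0.35 ± 0.095 (adjusted p = 0.0312). The glutathione S-transferases were lower: Gsta3 had 9.92, 10.8 and 10.3 FPKM at 2 weeks, against 36.1, 41.0 and 41.6 FPKM in saline (-1.84 ± 0.085, adjusted p = 5.07e-05), and Gstm1, Mgst1 and Gstp1 fell by 1.35, 0.75 and 0.62. Of the 20 other NRF2 targets 4 rose and 6 fell. Cat averaged 55.5 FPKM at 2 weeks and 113 FPKM in saline (-1.01 ± 0.10, adjusted p = 0.000622).

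Of the other glutathione genes Gpx7, a peroxidase of the endoplasmic reticulum, rose by 0.77 ± 0.11 at 2 weeks (limma adjusted p = 0.00241), while Gpx4, which reduces lipid peroxides in membranes, fell by 0.56 ± 0.10 (adjusted p = 0.00744) and Gpx2 by 0.43 ± 0.088 (adjusted p = 0.0111). In the thioredoxin list Prdx4 rose by 0.40 ± 0.094, and Txnrd3 and Prdx6, a peroxiredoxin abundant in AT2 cells, fell by 1.08 ± 0.097 and 0.70 ± 0.16. AT2 markers were lower in the same libraries, 8 of 8 of them by the test; their part in these falls was not tested. Among the oxidant producers 5 rose, Cybb by 1.12 ± 0.28 (adjusted p = 0.0221) and Ncf4 by 0.86 ± 0.25 (adjusted p = 0.0396) among them, and Xdh and Nox4 fell by 0.62 and 0.36; of the macrophage and monocyte markers 6 of 10 rose too, and their part was not tested. Several of these calls were lost when 1 library was left out. Cybb and Ncf4 did not pass without 2-week library 1 or 2 or saline library 2 or 3 (limma adjusted p = 0.0523 to 0.0734 for Cybb and 0.0979 to 0.122 for Ncf4). Bach1 did not pass in these 4 fits or without 2-week library 3 (0.064 to 0.104). Nox4 did not pass without 2-week library 3 or any 1 saline library (0.0686 to 0.0909), Prdx4 without 2-week library 2 or 3 or saline library 3 (0.053 to 0.0765), and Prdx6 without 2-week library 2 (0.052) or saline library 3 (0.0555).

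Setting LPS directly against 2-week bleomycin, 4 members passed, Sod2 and Sod1 higher after LPS and Sod3 and Gclm lower, where 34.2% of 12488 genes passed (limma), 10.4% higher and 23.8% lower. These groups differ in both agent and time, which cannot be told apart here. The groups did not overlap for 3 members, against 52.7% of genes. Sod2 averaged 185 FPKM after LPS and 34.1 FPKM at 2 weeks (log2 difference 2.39 ± 0.18, adjusted p = 2.77e-05). Sod1 averaged 623 ± 176 FPKM after LPS and 345 ± 16.0 FPKM at 2 weeks (SD, n = 3 each; 0.81 ± 0.26, adjusted p = 0.0364). Sod3 averaged 133 and 220 FPKM (-0.72 ± 0.22, adjusted p = 0.0297), and Gclm 2.89 and 6.45 FPKM (-1.08 ± 0.34, adjusted p = 0.0344), although Gclm in LPS library 1, at 5.52 FPKM, lay within the 2-week range. Gclc did not pass (-0.50 ± 0.33, adjusted p = 0.253), and neither did Srxn1 (0.0069 ± 0.21, adjusted p = 0.982).

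Single libraries decided 3 of these 4 calls. Gclm lost its call without LPS library 2 (limma adjusted p = 0.0889) or 3 (0.16) and without 2-week library 1 (0.104) or 2 (0.1). Sod1 lost it without LPS library 2 (0.0721) or 3 (0.114) and without 2-week library 1 (0.116), 2 (0.121) or 3 (0.111), and also with equal summed FPKM (0.0894) and quantile normalization (0.3). Sod3 lost it without LPS library 3 (0.11) or 2-week library 1 (0.123) or 3 (0.128), and with median-ratio scaling (0.239), as Gclm did with that scaling (0.0758) and quantile normalization (0.0769). Without LPS library 1, Gclc (-0.89, adjusted p = 0.0165) and Nqo1 (-0.54, adjusted p = 0.0411) passed as well, and Nqo1 also passed with equal summed FPKM (-0.71, adjusted p = 0.0391). The median gene differed by -0.25, and by -0.53, 0.0089 and -0.021 with equal summed FPKM, median-ratio scaling and quantile normalization. As deposited 1303 genes were higher after LPS and 2970 lower, with equal summed FPKM 756 and 5427, with median-ratio scaling 2122 and 1660 and with quantile normalization 1666 and 1864.

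**Figure D4:**
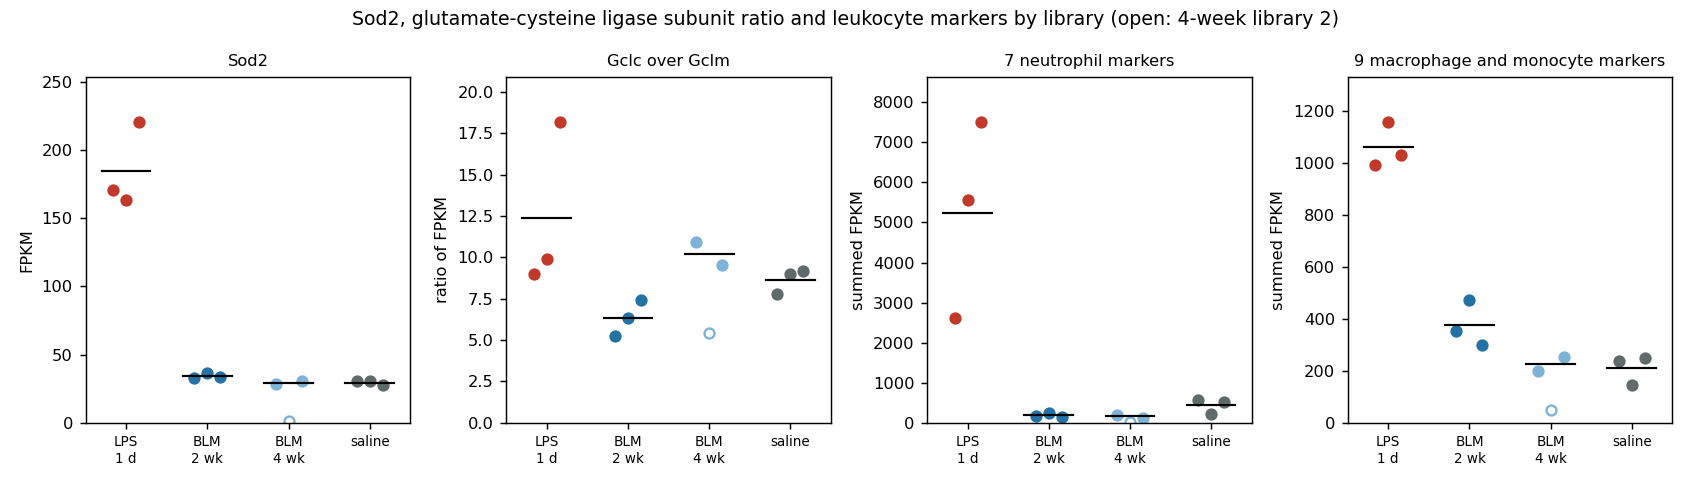
Sod2 FPKM, the ratio of Gclc to Gclm FPKM, and summed FPKM of 7 neutrophil and 9 macrophage and monocyte markers (vertical axes, linear, from 0) in the 12 libraries by group. Points are libraries, lines are means without 4-week library 2 (open); the neutrophil sum is 2610 to 7504 FPKM after LPS and at most 560 FPKM elsewhere.

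At 4 weeks of bleomycin no member passed against saline, and 0% of the 12325 genes tested did (limma; 302 genes had an unadjusted p under 0.05, and 1 gene, higher, has a q-value under 0.05 in the authors' deposited table). Library 2 stood apart from the others here too. It listed Nqo1 at 0 and had 8.79 FPKM of Nfe2l2, 4.31 of Txnrd1, 1.43 of Sod2, 12.4 of Gclc, 2.28 of Gclm, 6.49 of Srxn1 and 96.6 of Sod3, but 514 FPKM of Sod1 and 2373 FPKM of Gpx3, the highest Gpx3 value of the 12. The groups did not overlap for 2 members, against 29.3% of genes. Without library 2, 1.44% of 12284 genes passed (0.79% higher and 0.651% lower), and again no member; the groups then did not overlap for 3 members, against 41.7% of genes.

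In library 1 and the unnumbered library, Nfe2l2 had 57.8 and 79.4 FPKM, against 72.9 to 78.2 FPKM in saline, and Nqo1 10.3 and 6.80 FPKM, against 6.61 to 8.09 FPKM. Gclc had 45.2 and 60.7 FPKM, against 54.8 to 67.1 FPKM in saline, and Gclm 4.14 and 6.38 FPKM, against 7.03 to 7.45 FPKM. Srxn1 had 12.2 and 18.0 FPKM, against 17.5 to 18.7 FPKM in saline. Txnrd1, at 28.8 and 41.3 FPKM against 47.5 to 53.2 FPKM in saline, was lower than saline in both (log2 difference -0.52 ± 0.17 without library 2, limma adjusted p = 0.159; -1.44 ± 0.80 with it, adjusted p = 0.541). Without library 2 the log2 differences from saline of Nfe2l2, Gclc, Gclm and Srxn1 were -0.15 ± 0.16, -0.24 ± 0.17, -0.41 ± 0.17 and -0.27 ± 0.17, and with it they were -1.08 ± 0.81, -0.91 ± 0.62, -0.72 ± 0.42 and -0.63 ± 0.45 (limma adjusted p = 0.237 to 0.610 without it and 0.541 with it). Nqo1 turned its sign, with 0.14 ± 0.19 without library 2 and -0.93 ± 0.93 with it (adjusted p = 0.674 and 0.549).

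The dismutases at 4 weeks lay near saline in these libraries. Sod1 had 567 and 501 FPKM, against 561 to 625 FPKM in saline, Sod2 28.3 and 30.6 FPKM, against 27.5 to 30.7 FPKM, and Sod3 282 and 292 FPKM, against 216 to 261 FPKM. The Sod3 values were both above saline without passing (0.27 ± 0.14, limma adjusted p = 0.312; -0.25 ± 0.50 with library 2, adjusted p = 0.732). Gpx3 had 326 and 428 FPKM, within the saline range of 305 to 971 FPKM, and its difference was -0.37 ± 0.47 without library 2 and 0.52 ± 0.86 with it (adjusted p = 0.665 and 0.684). That of Sod1 was -0.13 ± 0.14 and -0.15 ± 0.27 (adjusted p = 0.608 and 0.707), and that of Sod2 was -0.00012 ± 0.12 and -1.22 ± 1.02 (adjusted p = 0.9996 and 0.541). Of 62 listed genes tested without library 2, Txnrd3 alone passed, where 1.44% of all genes did. It was lower, at 4.38 FPKM against 10.1 FPKM in saline (-1.04 ± 0.12, limma adjusted p = 0.0186). With library 2 it did not pass (-1.40 ± 0.44, adjusted p = 0.541).

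Set against 2 weeks, 4-week libraries passed for no member with library 2, where 0% of 12472 genes did (limma; 690 genes had an unadjusted p under 0.05), and for Sod1 without it, where 9.28% of 12440 genes did (1.95% higher and 7.34% lower). The groups did not overlap for 4 members with that library, against 38% of genes, and for 6 without it, against 49.5%. Without library 2, Sod1 averaged 534 FPKM in 2 libraries at 4 weeks and 345 FPKM at 2 weeks (0.63 ± 0.16, limma adjusted p = 0.0482). With library 2 the difference was 0.61 ± 0.27 (adjusted p = 0.478). Of 15 alternatives to the fit with library 2, only 1, the fit without it, called Sod1. A joint fit of the 11 libraries other than library 2 did not. Srxn1 (-0.53 ± 0.18, adjusted p = 0.0988) and Txnrd1 (-0.43 ± 0.17, adjusted p = 0.149) lay lower at 4 weeks without library 2, without passing and without overlap, and were lower with it too (-0.89 ± 0.45 and -1.34 ± 0.80, adjusted p = 0.478 for both). Gclc did not pass either way and turned its sign: without library 2 it lay higher with no overlap (0.38 ± 0.17, adjusted p = 0.173), and with it the groups overlapped (-0.29 ± 0.62, adjusted p = 0.741). Nqo1 (0.44 ± 0.21 without library 2 and -0.63 ± 0.93 with it) and Sod3 (0.40 ± 0.19 and -0.12 ± 0.52) turned their sign as well. Nfe2l2 (-0.098 ± 0.16 and -1.04 ± 0.81), Gclm (-0.26 ± 0.20 and -0.57 ± 0.43), Sod2 (-0.20 ± 0.13 and -1.42 ± 1.02) and Gpx3 (0.24 ± 0.50 and 1.13 ± 0.89) did not. None of these 6 passed either way (limma adjusted p = 0.191 to 0.760 without library 2 and 0.478 to 0.869 with it).

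Of the listed genes 0 of 63 passed between 4 and 2 weeks with library 2, and 7 rose and 5 fell of 62 without it. Over all genes tested without library 2, 1.95% were higher and 7.34% lower. In that fit of 5 libraries the transferases Gsta3, Gstm1, Mgst1 and Gsta4 were higher at 4 weeks by 1.63, 1.05, 0.80 and 0.63 on the log2 scale, Cat by 0.59, Gpx2 by 0.51 and the thioredoxin inhibitor Txnip by 0.81, and Ncf4, Cybb and Ncf1 were lower (log2 differences -1.29, -1.28 and -1.04). With library 2 the differences of Gsta3, Gstm1, Gpx2, Ncf4, Cybb and Ncf1 had the same sign (1.36, 1.26, 0.98, -2.15, -0.96 and -1.14), that of Gsta4 was 0.0096, and those of Mgst1 (-0.24), Cat (-1.31) and Txnip (-1.10) had the opposite sign. Markers moved in the same 5 libraries: 6 of 8 AT2 and 4 of 4 club cell markers were higher at 4 weeks, and 5 of 10 macrophage and monocyte and 2 of 6 neutrophil markers were lower. The club cell markers summed to 27134 and 15714 FPKM at 4 weeks, against 4264 to 7716 FPKM at 2 weeks, and the macrophage and monocyte markers without Lyz2 to 199 and 254 FPKM, against 301 to 474 FPKM. Their part in these differences was not tested.

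The profiles most like those of the members were sought over the 11 libraries without 4-week library 2, among 5776 genes, by the root mean square difference of log2(FPKM + 1) after subtracting each gene's saline mean. For Sod2, whose own distance from its saline mean was 1.36, the nearest were Ifitm1 (0.207), an interferon-induced membrane protein gene, and Il18bp (0.225), which encodes a binding protein for interleukin 18. Ifitm1 had 248, 298 and 493 FPKM after LPS, against 57.5, 53.6 and 61.2 FPKM in saline. Nfe2l2 lay nearest to Pvr (0.0893) and Xbp1 (0.0989), Gclc to Slc12a2 (0.149) and Abhd2 (0.162), and Gclm to Phf2 (0.186) and Oxr1 (0.187). Sod1 lay nearest to Bri3 (0.108) and Rabac1 (0.135), and Sod3 to Csrp1 (0.104) and Enpp2 (0.163). Srxn1 was nearest to Dhx38 (0.111) and Lars (0.114), Txnrd1 to Fzd4 (0.124) and Ppp1r15b (0.125), and Nqo1 to Arglu1 (0.112) and Ythdc1 (0.124), the last of which reached the level required only in 4-week library 2. Gpx3 had no close neighbour, its nearest being Arid5a at 0.370 and Cebpd at 0.419.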

How the data were processed

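RNA was sequenced from bead-isolated mouse alveolar epithelial cells in 12 libraries of 4 groups. HISAT2, StringTie and build mm10 are named per the submitters' processing notes; neither versions, nor a strand setting, nor library sizes in reads, are stated there. The authors deposited 3 tables, 1 per treatment, each holding FPKM per library for that treatment and saline, per the file headers. The tables also hold the authors' deposited log2 fold change, linear fold change, p-value and q-value. The saline columns held the same numbers in each table (differences of 0), so the tables were joined, and no column of another series was found. Equal saline values do not show that the treated libraries share 1 scale. Summed FPKM per library ran from 288890 to 403757. 1 line of each table was empty in the copy used. Low FPKM values were not whole multiples of 1 step (at most 58.8% within 0.1), so depth is unknown and no counting interval is given.

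Differences were tested with limma 3.58.1 in R 4.3.3 (two-sided, mean-variance trend, no replicate block), using the 6 libraries of each comparison and log2 of FPKM plus a pseudocount of 1. A gene entered if 3 or more libraries reached 1 FPKM, and p-values were adjusted by Benjamini-Hochberg over all genes entered, with a threshold of 0.05. Such fold changes understate those of low genes. The script was tested on simulated data. The members, the 6 pathway lists and the marker lists were chosen with earlier results of these data known. Named list genes are at most 4 per list and comparison with the smallest p, among genes averaging 10 FPKM or more in a group; exceptions are stated. Duox1, Duox2 and Duoxa1 were listed and are not analysed here. Alternatives were another pseudocount (0.1), no filter or 5 FPKM, 3 scalings, a replicate block, joint fits of 12 or 11 libraries, leaving out each library and the authors' q-values.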

Additional observations from a re-analysis of the deposited data

How the results depend on the processing

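Over the alternatives no called member changed direction. A joint fit of 12 libraries, which takes its spread in part from 4-week library 2, left no member called in any comparison. It called 669 genes for LPS, 134 for 2 weeks and 1 for 4 weeks against saline, 484 for LPS against 2 weeks and 67 for 4 weeks against 2 weeks. A joint fit of 11 libraries without that library called 1773 genes and 1 member, Sod1, at 2 weeks. It called 195 genes at 4 weeks and 639 genes for 4 weeks against 2 weeks, with no member in either. A minimum of 5 FPKM, with fewer genes tested, called 3272 genes for LPS and 2729 for LPS against 2 weeks. The authors' q-values called 2857 genes and 3 members for LPS, Gclc and Gclm not among them, and 1 gene at 4 weeks. Median-ratio scaling and quantile normalization each called 2 members for LPS against 2 weeks. Leaving out 1 library at a time, with fewer samples, gave 2561 to 6693 genes and 2 to 5 members for LPS, 2153 to 3282 genes and 2 members at 2 weeks, 0 to 177 genes and no member at 4 weeks, 1919 to 6473 genes and 1 to 6 members for LPS against 2 weeks, and 0 to 1155 genes and 0 to 1 members for 4 weeks against 2 weeks. Causes of these shifts, other than fewer genes or samples, were not tested.

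No pairing by replicate number was seen. Deviations of same-numbered libraries correlated at -0.153 to 0.115, and those of differently numbered ones at -0.264 to 0.264. With 3 libraries a group these values do not exclude a pairing. With the replicate number as a block, 4 weeks against 2 weeks called 1 gene, Srxn1 at 2 weeks (adjusted p = 0.0784) and Sod1 for LPS against 2 weeks (0.062) did not pass, and the calls of the other members were kept.

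Members that had not passed changed sign in places, none of them passing then; the cause was not tested, and each value is a log2 difference. With equal summed FPKM this was so for LPS against saline of Nfe2l2 (-0.039) and Sod1 (-0.14), for 2 weeks of Nfe2l2 (0.11), Txnrd1 (0.057) and Sod3 (0.023), and for LPS against 2 weeks of Nfe2l2 (-0.15), Srxn1 (-0.33), Txnrd1 (-0.26) and Gpx3 (-0.32). With median-ratio scaling it was so for LPS of Txnrd1 (0.26), for 4 weeks of Sod1 (0.26) and Sod3 (0.15), and for 4 weeks against 2 weeks of Gclc (0.17) and Sod3 (0.35). Under quantile normalization it was so for LPS of Nfe2l2 (-0.15) and Sod1 (-0.26), for LPS against 2 weeks of Nfe2l2 (-0.080), Txnrd1 (-0.072) and Gpx3 (-0.52), and for 4 weeks against 2 weeks of Nqo1 (0.24), Gclc (0.079) and Gclm (0.20). In the joint fit of 11 libraries it was so at 4 weeks of Nqo1 (0.14), Sod3 (0.27) and Gpx3 (-0.37), and against 2 weeks of Nqo1 (0.44), Gclc (0.38) and Sod3 (0.40). Leaving out 1 library at a time, the values that crossed 0 ranged for LPS from -0.19 to 0.13 (Txnrd1) and -0.14 to 0.28 (Sod1), for 2 weeks from -0.24 to 0.031 (Sod3), and for 4 weeks from -1.61 to 0.14 (Nqo1), -0.53 to 0.27 (Sod3) and -0.37 to 1.06 (Gpx3). They ranged for LPS against 2 weeks from -0.15 to 0.23 (Srxn1), -0.096 to 0.23 (Txnrd1) and -0.34 to 0.60 (Gpx3), and for 4 weeks against 2 weeks from -1.30 to 0.44 (Nqo1), -0.72 to 0.38 (Gclc) and -0.39 to 0.40 (Sod3). At 4 weeks the crossing values were those without library 2. The 60 results of list genes kept their direction in all 940 alternatives run on them and lost their call in 104. Depth is unknown, so what it limits cannot be given.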
